A study of Mus musculus with 12 samples.

Results

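The 10 genes described here encode the core proteins that make microRNAs and carry out silencing. They are the Microprocessor subunits Drosha and Dgcr8, the cytoplasmic nuclease Dicer1, the Argonautes Ago1 to Ago4 and the GW182 proteins Tnrc6a, Tnrc6b and Tnrc6c. They were chosen by gene name, as the 10 rows of the count table that carry these symbols, out of 54532 genes. All 10 passed the cutoff on low counts, as did 24642 genes in all.

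Primary microRNA transcripts are cut in the nucleus by Drosha, whose partner Dgcr8 binds the hairpin, and the exported hairpin is trimmed by Dicer1 to a short duplex. An Argonaute protein keeps one strand and pairs it with target mRNAs, mostly in the 3′-UTR. GW182 proteins bind the Argonaute and recruit deadenylases and decapping factors, which shorten and then destroy the target. Microprocessor also cuts hairpins in the Dgcr8 mRNA itself. In the kidney tubule these proteins serve, among others, the miR-17 family, which binds a motif in the Pkd2 3′-UTR.

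The study asked what happens in polycystic kidney disease when Pkd2 mRNA loses that motif. RNA-seq was performed on whole kidneys of 12 C57BL/6 mice aged 18 days, in 4 groups of 3. All mice carried one Pkd1 RC allele, a missense allele with reduced function. In the study's description the second Pkd1 copy was a floxed allele in every group. The control groups (labelled Pkd1 RC, called noncystic here) lacked Ksp-Cre and kept that copy working. In the cystic groups (labelled Pkd1F RC) it was removed by Ksp-Cre, which is active in kidney tubule epithelium. Cystic and noncystic kidneys thus also differ in the presence of Cre. Within each disease state, 1 group had both Pkd2 copies intact (Pkd2+/+) and the other had the miR-17 motif deleted from both (Pkd2Δ17/Δ17, labelled Pkd2 UTR DD). Mice are called by the numbers in their labels: 19 to 21 were noncystic Pkd2+/+, 22 to 24 noncystic Pkd2Δ17/Δ17, 25 to 27 cystic Pkd2+/+ and 28 to 30 cystic Pkd2Δ17/Δ17.

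Libraries held 18800307 to 24453033 counted reads. Levels are given in CPM, the reads of a gene scaled to library size, with TMM factors. Markers of kidney tubules were abundant: 7 proximal tubule genes summed to 15110 to 15668 CPM in noncystic Pkd2+/+ kidneys and to 5162 to 6723 CPM in cystic ones, and all 7 were lower there. In the same comparison the 6 macrophage genes, all of them higher, summed to 116 to 126 CPM and 285 to 340 CPM, and the 7 genes of cycling cells, also all higher, to 202 to 267 CPM and 512 to 582 CPM. Fibroblast genes also summed higher in cystic Pkd2+/+ kidneys (1993 to 2171 against 3045 to 4738 CPM), while podocyte genes (552 to 658 against 319 to 370 CPM), red blood cell genes (592 to 970 against 251 to 353 CPM) and fat tissue genes (558 to 1134 against 200.2 to 313 CPM) summed lower, as did those of the thick limb and distal tubule and of endothelium. Not all genes of these lists followed their sum. At an edgeR adjusted p under 0.05, 4 fibroblast genes were higher and 1 lower. Podocyte genes and fat tissue genes each had 1 higher and 4 lower, and the thick limb and distal tubule 1 higher and 3 lower. Sums of collecting duct and lymphocyte genes overlapped. With the motif deleted the cystic kidneys ranged from 7340 to 8704 CPM for the proximal tubule, 215 to 274 CPM for macrophages and 441 to 533 CPM for cycling cells. Adrenal gland genes, which summed to between 3.89 and 7.20 CPM in 10 libraries, reached 52.4 CPM in mouse 27 and 365 CPM in mouse 30. Pkd2 itself, the edited gene, averaged 226 ± 11.1 CPM in cystic mice with the motif and 326 ± 16.7 CPM in those without it (SD, n = 3). This is a difference of 0.53 on the log2 scale (SE 0.08, edgeR adjusted p = 0.00250). In noncystic mice Pkd2 averaged 210 ± 13.9 CPM with the motif and 278 ± 7.68 CPM without it, again without overlap. The log2 difference there was 0.40 (SE 0.08, edgeR unadjusted p = 8.21e-05, adjusted p = 0.771). The interaction for Pkd2 was 0.13 (edgeR adjusted p = 0.818), so a rise particular to cystic kidneys was not shown. Whole kidney RNA cannot tell fewer cells of a type from less RNA per cell, and the part that the shift in cell makeup played in the results below was not tested.

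Because this deletion removes a miR-17 site, the mature sequences of the family are shown first, as given by RefSeq for GRCm38.p6. Capitals mark the seed, bases 2 to 8, which pairs with the target. All 6 have the same seed, which mmu-miR-6383 carries as well:

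mmu-miR-17-5p: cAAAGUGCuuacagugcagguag

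mmu-miR-20a-5p: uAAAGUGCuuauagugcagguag

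mmu-miR-20b-5p: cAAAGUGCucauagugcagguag

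mmu-miR-93-5p: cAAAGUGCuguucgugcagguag

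mmu-miR-106a-5p: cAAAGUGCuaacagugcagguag

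mmu-miR-106b-5p: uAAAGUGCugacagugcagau

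The seed match GCACTTT was searched on the sense strand of 1 annotated 3′-UTR per gene (GENCODE M21, GRCm38). It occurs in 6 of the 10 genes, once each in Ago1, Ago2, Tnrc6a, Tnrc6b and Tnrc6c and 3 times in Ago3. The letters are absent from the annotated 3′-UTRs of Ago4, Dicer1, Drosha and Dgcr8. Over all 21024 genes with an annotated 3′-UTR, 11.8% hold the match. Several of these 3′-UTRs are long, however, at 11064 nucleotides in Ago2, 12742 in Ago3 and 11609 in Tnrc6b, and 63.2%, 59.1% and 63.1% of genes within 20% of those lengths hold it as well. The longer match GCACTTTA, found in 3.50% of genes, occurs in none of the 10. The matches of Ago1 and of the GW182 genes with shorter 3′-UTRs are shown with 11 flanking bases on each side, the match in capitals, so that the sites can be compared:

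Ago1, chr4:126438519-126438547, minus strand, exon 19: cattgacatttGCACTTTcagacgtgaca

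Tnrc6a, chr7:123193608-123193636, plus strand, exon 24: ggacgggccctGCACTTTgaacaggcttt

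Tnrc6c, chr11:117761130-117761158, plus strand, exon 22: tatcatgaaggGCACTTTtcagattgtgg

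These matches describe sequence only, and binding was not measured. All Argonaute genes but Ago2 are neighbours: Ago3 (chr4:126331704-126429556), Ago1 (chr4:126435012-126468583) and Ago4 (chr4:126489541-126533472) lie on the minus strand of chromosome 4, separated by 5455 and 20957 bases. Ago2 (chr15:73095844-73184935, minus), Drosha (chr15:12824815-12935291, plus) and Tnrc6b (chr15:80711313-80941085, plus) are on chromosome 15. Dgcr8 (chr16:18253948-18289246, minus), Dicer1 (chr12:104687742-104751952, minus), Tnrc6a (chr7:123123885-123195296, plus) and Tnrc6c (chr11:117654289-117763439, plus) are each on their own. Few reads could be shared between the Argonaute genes, as 125 of 8158 windows of 50 bases in Ago1 transcripts recur in Ago2 or Ago3 (1.53%).

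All 10 genes were well covered in every kidney. The lowest count was 176 reads, for Ago4 in mouse 20 (95% Poisson interval 151 to 204, counting error only), and the highest was 3179 reads, for Tnrc6a in mouse 25. To compare genes with each other, CPM was divided by the length of the gene's annotated exons in kilobases. On this per-kilobase scale the mean over 12 mice ran from 10.9 for Drosha, 9.65 for Ago1 and 8.92 for Tnrc6a down through 4.21 for Dicer1, 4.16 for Tnrc6c, 3.98 for Ago2, 2.96 for Dgcr8, 2.05 for Tnrc6b and 1.68 for Ago4 to 1.17 for Ago3. The gap between Tnrc6a and Dicer1 is the only step between neighbours at which the ranges over the 12 mice do not overlap. With the longest annotated transcript as the length, Drosha stayed first and Ago3 last, while Tnrc6a, Ago1, Dgcr8, Tnrc6c and Ago2 changed places.

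The first comparison was between cystic and noncystic kidneys with intact Pkd2. Both Microprocessor genes and Ago1 rose, and the other 7 genes did not pass the test. Thus 3 of 10 members were called at an adjusted p under 0.05, all higher, against 31.1% of all genes tested (16.9% higher and 14.2% lower). A stricter cutoff on low counts (filterByExpr) left 17425 genes, of which 45.1% were called, with the same 3 members. The share of members called was thus close to the background or below it, depending on the cutoff. The median log2 fold change was 0.14 over the 10 members and 0.02 over all genes.

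**Figure D1:**
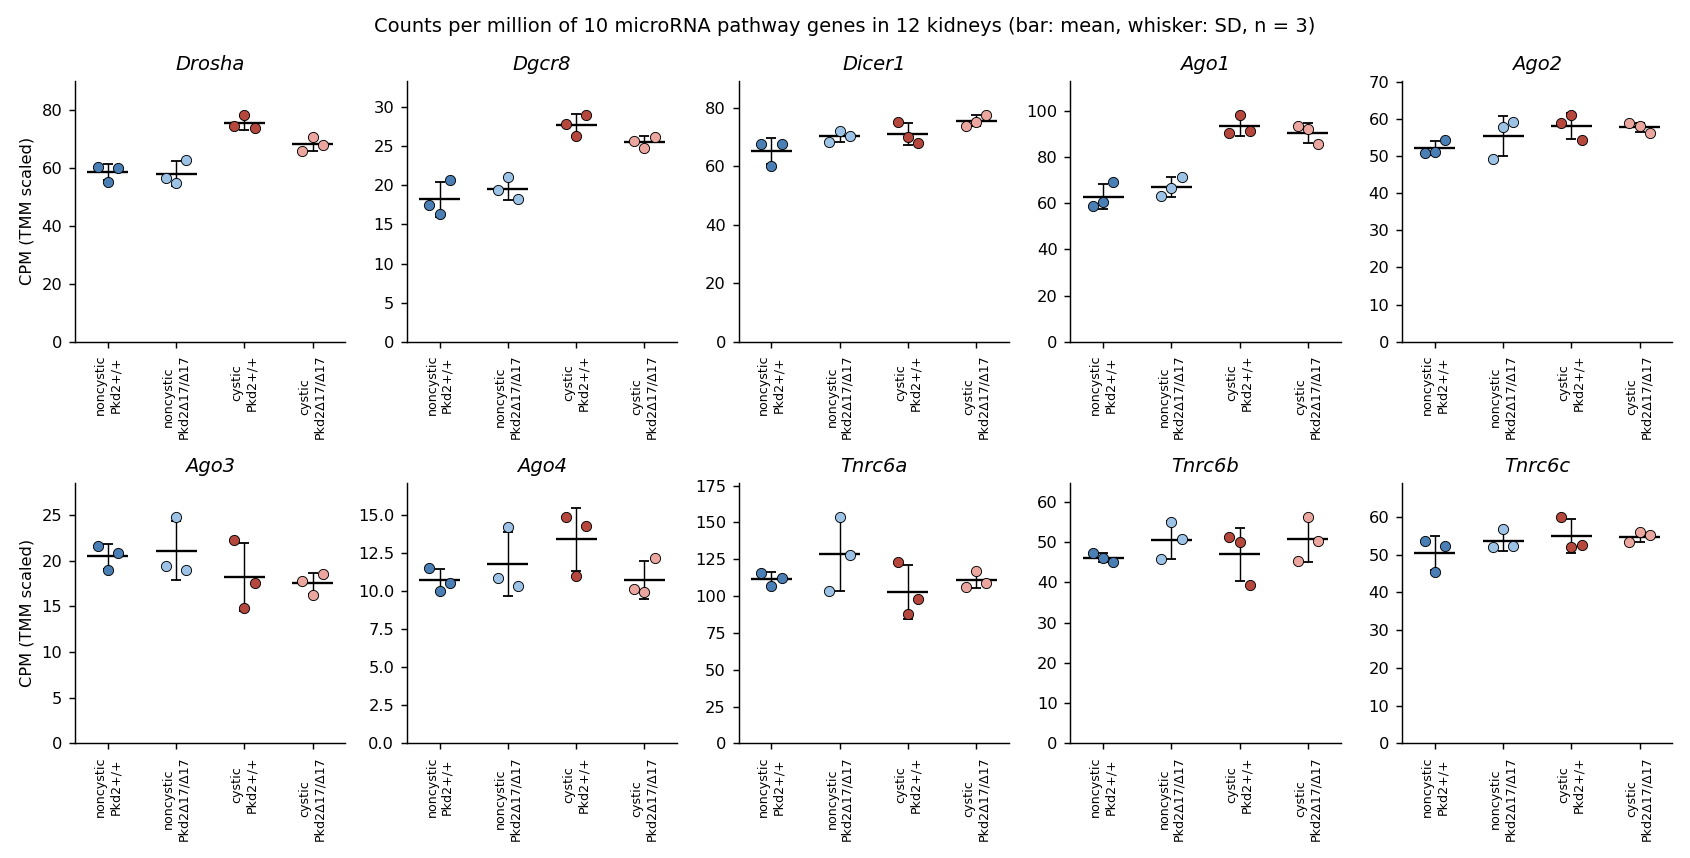
Level of each of the 10 genes in CPM (TMM scaled, linear axis from 0) in the 12 kidneys, with 1 point per mouse, the bar at the group mean and the whisker at 1 SD (n = 3). In Drosha, Dgcr8 and Ago1 every cystic kidney lies above every noncystic kidney.

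Drosha, the nuclease of Microprocessor, measured 60.1, 55.1 and 59.9 CPM in noncystic Pkd2+/+ kidneys and 74.3, 78.1 and 73.8 CPM in cystic ones. All cystic values lay above all noncystic ones, the nearest being mice 19 and 27. The log2 fold change was 0.37 (SE 0.07, edgeR adjusted p = 0.000953), a 1.29-fold rise.

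Dgcr8, its RNA-binding partner, was the member with the largest change. It measured 17.5, 16.4 and 20.8 CPM in the noncystic and 27.9, 26.3 and 28.9997 CPM in the cystic group. All 3 cystic kidneys were higher than all 3 noncystic ones. The log2 fold change was 0.61 (SE 0.10, edgeR adjusted p = 0.000224), or 1.52-fold.

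The Dgcr8 transcript holds 2 microRNA hairpins in its exon 2, miR-1306 (chr16:18284239-18284317) and miR-3618 (chr16:18284550-18284637). The mature forms are shown since these are the hairpins in the mRNA of a Microprocessor subunit, with seeds in capitals:

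mmu-miR-1306-5p: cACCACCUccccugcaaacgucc

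mmu-miR-1306-3p: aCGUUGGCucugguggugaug

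mmu-miR-3618-5p: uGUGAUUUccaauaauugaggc

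mmu-miR-3618-3p: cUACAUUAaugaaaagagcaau

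Neither microRNA gene had any read in the table in any mouse, and a read over either exon would overlap Dgcr8 as well. Dgcr8 counts are less certain than those of the other members. Of its annotated exon bases, 10.7% also lie in exons of Trmt2a on the opposite strand and 6.42% in other genes on its own strand, and the strand setting of the counting is not given in the sources used here. Trmt2a, a tRNA methyltransferase gene, had a log2 fold change of 0.16 in the same comparison (adjusted p = 0.132). The genes whose mean-centred log2CPM over the 12 mice was nearest to that of Dgcr8, among 13690 genes, were Dab2ip, Carm1 and Tjap1, with root mean square differences of 0.05, 0.07 and 0.08.

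Dicer1, which acts after export of the hairpin, measured 67.8, 60.0 and 67.8 CPM in noncystic and 75.1, 70.2 and 67.9 CPM in cystic Pkd2+/+ kidneys. The groups did not overlap, although mouse 27 lay just above mice 19 and 21. With a log2 fold change of 0.12 (95% interval -0.03 to 0.28, adjusted p = 0.222) Dicer1 was not called. In all, 4 members were higher in every cystic kidney, Dicer1 and the 3 that were called, against 22% of all genes.

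Ago1 was the only Argonaute to pass with TMM scaling. It measured 58.7, 60.7 and 69.1 CPM in noncystic and 90.2, 98.1 and 91.4 CPM in cystic Pkd2+/+ kidneys. Every cystic kidney was well above the highest noncystic one. The log2 fold change was 0.57 (SE 0.08, edgeR adjusted p = 3.16e-05), or 1.48-fold.

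Ago2, the Argonaute that can itself cleave a target, measured 50.9, 51.2 and 54.4 CPM against 58.8, 61.0 and 54.4 CPM, with a log2 fold change of 0.15 (95% interval -0.02 to 0.33, adjusted p = 0.176). Mouse 27 lay within the noncystic range. Ago2 shares 219 exon bases with Chrac1 on the opposite strand, and Chrac1 fell by 0.38 on the log2 scale (adjusted p = 0.0124).

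Ago3 and Ago4 were the least abundant members per kilobase. Ago4 measured 11.5, 10.04 and 10.6 CPM in noncystic and 14.9, 11.01 and 14.3 CPM in cystic Pkd2+/+ kidneys. Ago3 measured 21.7, 18.99 and 20.8 CPM against 22.3, 14.9 and 17.5 CPM. The groups overlapped for both genes. The log2 fold changes were 0.32 for Ago4 (95% interval -0.01 to 0.65, adjusted p = 0.134) and -0.17 for Ago3 (95% interval -0.47 to 0.13, adjusted p = 0.427).

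The GW182 genes, which link Argonaute to mRNA decay, overlapped between the groups. Tnrc6a measured 116, 107 and 112 CPM in noncystic and 123, 87.9 and 97.8 CPM in cystic Pkd2+/+ kidneys, so that the cystic values lay on both sides of the noncystic ones. Its log2 fold change was -0.11 (95% interval -0.38 to 0.15), beside 0.03 for Tnrc6b (-0.20 to 0.25) and 0.12 for Tnrc6c (-0.06 to 0.30), with adjusted p of 0.556, 0.891 and 0.327.

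These calls depend on how libraries are scaled. TMM factors were 0.933 to 0.972 in noncystic and 1.04 to 1.08 in cystic libraries, and the 10 most abundant genes took 8.91% to 9.76% of reads in the former and 4.86% to 5.93% in the latter. Scaling by library totals raised the median log2 fold change of all genes by 0.16 and the share of higher genes among those called from 54.4% to 71.7%. Drosha, Dgcr8 and Ago1 were called under either scaling. With library totals Ago2, Ago4, Dicer1 and Tnrc6c passed as well, at log2 fold changes of 0.31, 0.48, 0.28 and 0.28, and the sign for Tnrc6a turned from -0.11 to 0.04. The members called were then 7 of 10, against 35.4% of all genes.

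**Figure D2:**
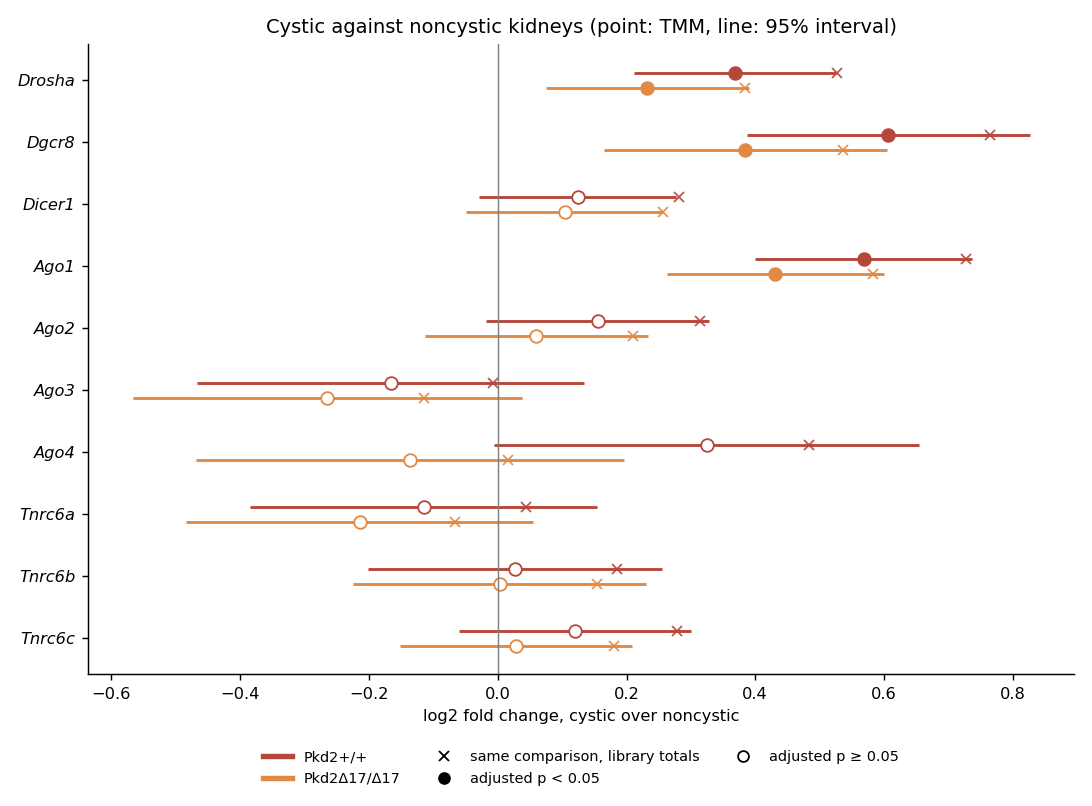
Log2 fold change of each gene between cystic and noncystic kidneys with intact Pkd2 (red) and with the motif deleted (orange), with 3 mice per group. Points are TMM-scaled estimates, filled where the adjusted p is under 0.05, lines are 95% intervals and crosses are estimates scaled by library totals, which lie to the right of the points for all 10 genes.

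The same comparison in mice with the motif deleted used 6 other kidneys. Drosha, Dgcr8 and Ago1 were again the members that passed. They make 3 of 10 members, against 23% of all genes called (12.8% higher and 10.2% lower), or 34.7% with the stricter cutoff. The median over the members was 0.04, against 0.00 over all genes.

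Ago1 measured 63.2, 66.5 and 71.5 CPM in noncystic and 93.6, 92.1 and 85.5 CPM in cystic Pkd2Δ17/Δ17 kidneys, with a log2 fold change of 0.43 (SE 0.08, edgeR adjusted p = 0.000685). Dgcr8 measured 19.4, 21.1 and 18.2 CPM against 25.6, 24.7 and 26.2 CPM, with 0.38 (SE 0.10, adjusted p = 0.0120). Drosha measured 56.3, 54.7 and 62.8 CPM against 65.8, 70.5 and 67.8 CPM, with 0.23 (SE 0.07, adjusted p = 0.0321). In each of the 3 genes all cystic kidneys lay above all noncystic ones, with Drosha the closest, at 62.8 CPM in mouse 24 and 65.8 CPM in mouse 28.

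The call for Drosha in these mice was the least secure. It was lost when any one of mice 22, 23, 29 or 30 was left out (log2 fold changes of 0.20, 0.17, 0.21 and 0.23) and under 4 other settings given in the closing section, with values of 0.21 to 0.23. The call for Dgcr8 was lost without mouse 24, at 0.34. Without mice 27 and 30, the 2 libraries with adrenal transcripts, Ago1 alone passed here (0.47, edgeR adjusted p = 0.00269), while Drosha had 0.23 and Dgcr8 had 0.36.

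Among the other members, Dicer1 was higher in every cystic than in every noncystic Pkd2Δ17/Δ17 kidney, at 73.8, 75.4 and 77.6 CPM against 68.4, 72.3 and 70.4 CPM, and Ago3 was lower, at 17.8, 16.3 and 18.5 CPM against 19.4, 24.8 and 19.03 CPM. Neither was called, with log2 fold changes of 0.10 (adjusted p = 0.353) and -0.26 (adjusted p = 0.216). Groups without overlap were thus found for 4 members in the higher direction and 1 in the lower, against 20.2% and 17.7% of all genes. The remaining values were 0.06 for Ago2, -0.14 for Ago4, -0.21 for Tnrc6a, 0.00 for Tnrc6b and 0.03 for Tnrc6c. Under library totals, which raised the median of all genes by 0.15 here and the share of higher calls from 55.7% to 76.3%, Dicer1 was called at 0.26 and Ago4 turned to 0.02.

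Averaged over both Pkd2 genotypes, cystic disease went with log2 fold changes of 0.50 for Ago1 (SE 0.06, edgeR adjusted p = 1.82e-06), 0.50 for Dgcr8 (SE 0.07, adjusted p = 3.65e-05) and 0.30 for Drosha (SE 0.05, adjusted p = 0.000192). These were the 3 members called, against 38.2% of all genes, or 54% with the stricter cutoff. Dicer1, at 0.11 (adjusted p = 0.0915), and Ago3, at -0.22 (adjusted p = 0.106), were under 0.05 before adjustment only. Without mouse 25, Ago3 (-0.30) and Tnrc6a (-0.24) passed as lower, making 5 members called, against 37.7% of all genes. Scaling by library totals made 6, all higher, against 42.8% of all genes.

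Since scaling matters for genes that change little, 3 ratios within a library, which no scaling can alter, were compared between the 6 noncystic and the 6 cystic kidneys. Group labels were permuted within each Pkd2 genotype in an exact two-sided test over 400 assignments, whose smallest possible p is 0.005, and p-values were adjusted over the 3 ratios.

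Ago2 made up 26.1% ± 0.703 of the Argonaute transcripts per kilobase in noncystic and 22.6% ± 0.732 in cystic kidneys (SD, n = 6). It ranged from 24.99% to 26.9% in the former and from 21.2% to 23.1% in the latter, so the ranges do not meet. The difference was -3.44 percentage points, with an exact permutation p of 0.005 (adjusted p = 0.015), and 0.005 is the smallest the test can give. Ago3 also took a smaller share, 8.70% and 8.38% in the noncystic groups with intact and deleted motif and 5.90% and 5.93% in the cystic groups, while the share of Ago1 went from 54.3% and 54.4% to 61.6% and 62.3%. The shares of Ago1 and Ago3 were not tested. The level of Ago2 did not fall, since its mean went from 52.2 to 58.1 CPM with the motif and from 55.4 to 57.7 CPM without it, so that the smaller share goes with the rise of Ago1, the largest term of the sum.

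Tnrc6a made up 60.6% ± 2.24 of the GW182 transcripts per kilobase in noncystic and 57.0% ± 2.07 in cystic kidneys (SD, n = 6). The ranges overlapped: 3 of the 6 cystic kidneys lay below all noncystic ones, and the other 3 lay between 57.7% and 58.6%, within the noncystic range. The difference was -3.64 percentage points (exact permutation p = 0.015, adjusted p = 0.0225). It no longer passed without mouse 19, 20, 28 or 30, at -3.48 to -3.73 percentage points and adjusted p of 0.0525 to 0.0675 in the same exact test.

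The log2 ratio of Drosha to Dgcr8 reads averaged 1.63 ± 0.17 in noncystic and 1.43 ± 0.09 in cystic kidneys (SD, n = 6), so that there were fewer Drosha reads per Dgcr8 read in cystic kidneys. The ranges, 1.38 to 1.79 and 1.35 to 1.57, overlap. The difference of -0.20 had an exact permutation p of 0.045 (adjusted p = 0.045), just under the threshold. Leaving out any of mice 19, 20, 22, 24, 25, 27, 28 or 30 gave values of -0.14 to -0.21 with an exact permutation adjusted p of 0.065 to 0.085. Fewer mice and fewer assignments remained in those tests.

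**Figure D3:**
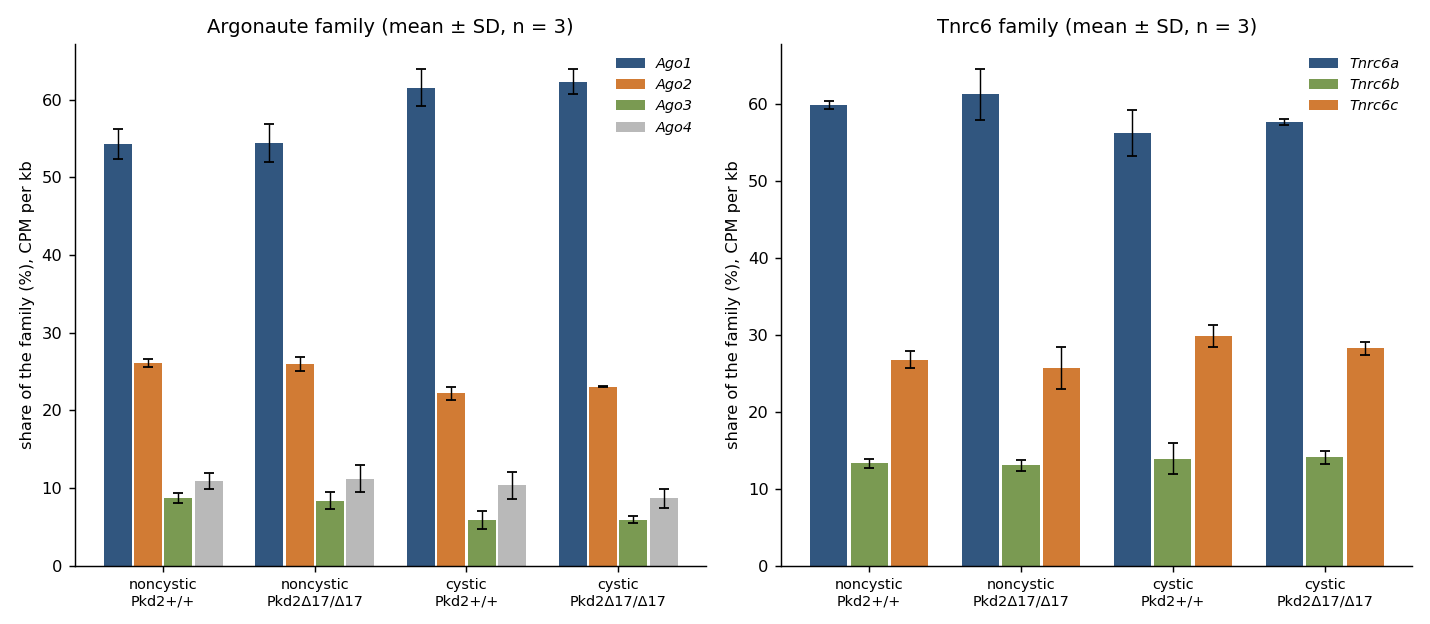
Share of each Argonaute gene (left) and each GW182 gene (right) in its family's CPM per kilobase, as mean and SD of 3 mice per group on an axis from 0. In both cystic groups the Ago1 bars are higher and the Ago2 and Ago3 bars lower than in the noncystic groups.

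The other question was whether the loss of the Pkd2 motif moved these genes. In cystic kidneys no member was called, against 2.23% of all genes, and none had an unadjusted p under 0.05, against 14.3%. By limma-trend and by DESeq2 the count was also 0. Drosha and Dgcr8 were lower in every cystic Pkd2Δ17/Δ17 kidney than in every cystic Pkd2+/+ kidney, at 65.8 to 70.5 against 73.8 to 78.1 CPM and 24.7 to 26.2 against 26.3 to 28.9997 CPM. Of all genes, 10.2% were lower without overlap. Their log2 fold changes were -0.15 (95% interval -0.30 to 0.01, adjusted p = 0.382) and -0.12 (-0.34 to 0.10, adjusted p = 0.673).

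Ago4 had the largest difference, 14.9, 11.01 and 14.3 CPM in cystic Pkd2+/+ and 10.1, 9.93 and 12.2 CPM in cystic Pkd2Δ17/Δ17 kidneys, with overlap of mouse 30 and mouse 26. Its log2 fold change was -0.32 (95% interval -0.65 to 0.01, adjusted p = 0.368). The other 7 ranged from -0.06 for Ago3 to 0.11 for Tnrc6b. The 95% intervals were -0.21 to 0.12 for Ago1, -0.18 to 0.16 for Ago2 and -0.36 to 0.24 for Ago3, the widest of the 3.

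**Figure D4:**
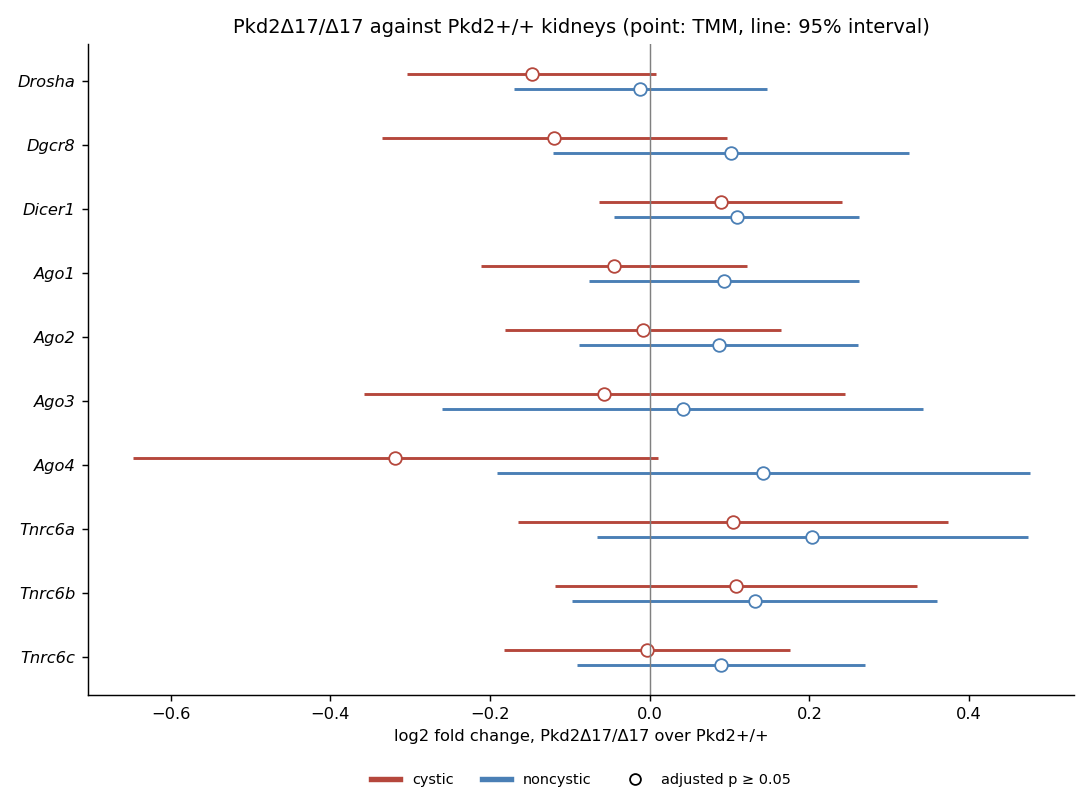
Log2 fold change of each gene between Pkd2Δ17/Δ17 and Pkd2+/+ kidneys in cystic (red) and noncystic (blue) mice, 3 mice per group, with 95% intervals. Every interval includes 0 and no point passed the adjusted p of 0.05.

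In noncystic kidneys the deletion likewise left no member called, against 0.00406% of all genes (1 gene), and none under an unadjusted p of 0.05, against 6.31%. Dicer1 was higher in every Pkd2Δ17/Δ17 kidney, 68.4 to 72.3 against 60.0 to 67.8 CPM, with a log2 fold change of 0.11 (adjusted p = 0.801), and 5.69% of all genes were higher without overlap. The largest value was 0.20 for Tnrc6a (95% interval -0.07 to 0.47, adjusted p = 0.793), where mouse 23 had 154 CPM and the other 5 noncystic kidneys 103 to 128 CPM. Mouse 23 was the highest of its group in 7 of the 10 members, and mouse 20 the lowest of its group in 7, as they were in 34.7% and 33.4% of all genes.

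Averaged over both disease states, the deletion gave no called member, against 0.442% of all genes, and none before adjustment, against 14.1%. The lowest p belonged to Dicer1, at 0.10 on the log2 scale (adjusted p = 0.398). The interaction, which asks whether the cystic change differed between Pkd2 genotypes, also gave none, against 0.0122%, and none before adjustment, against 8.33%. The interaction estimates for the 3 genes that rose were -0.14 for Ago1, -0.14 for Drosha and -0.22 for Dgcr8, with adjusted p of 0.799, 0.784 and 0.748. The largest was Ago4, at -0.46 (95% interval -0.93 to 0.01, adjusted p = 0.609).

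Around the core proteins, 89 genes in 6 lists were examined: cofactors of Microprocessor, export and Dicer, factors that tail or degrade microRNAs, partners of Argonaute, deadenylases, decapping factors and the 2 host transcripts of miR-17 family clusters on autosomes. In cystic Pkd2+/+ kidneys 31 rose and 3 fell (34.8% and 3.37%), beside 16.9% and 14.2% of all genes. Both directions together made 38.2% of the 89, beside 31.1% of all genes, or 45.1% of all genes with the stricter cutoff. The median log2 fold change of the 89 was 0.15, against 0.02 over all genes. With library totals 52 rose and 2 fell, beside 25.4% and 10% of all genes, and without mice 27 and 30 the counts were 24 and 3, beside 14.7% and 12%. With the motif deleted 22 rose and 1 fell in the cystic comparison, beside 12.8% and 10.2% of all genes. Library totals gave 46 and 1 there, beside 21.6% and 6.72%. None of the 89 was called in either deletion comparison, in their average or in the interaction.

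Of 19 processing partners 7 rose and none fell. Hnrnpa1, an RNA-binding protein that aids cutting of some hairpins, went from 271 ± 16.8 to 453 ± 9.99 CPM (log2 fold change 0.74, adjusted p = 1.03e-05), and Adar, which edits adenosines in double-stranded RNA, from 24.7 ± 1.97 to 41.4 ± 6.68 CPM (0.74, adjusted p = 7.59e-05). The hairpin exporter Xpo5 had 0.12 (adjusted p = 0.363) and the Dicer partner Tarbp2 -0.11 (adjusted p = 0.447), and neither was called. Lin28a, Lin28b and Trim71 held at most 6 reads in any library, and their estimates cannot be read.

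Of 13 genes for tailing and decay 6 rose and none fell, among them the uridyltransferase Tut7 (44.9 ± 4.54 to 61.3 ± 4.81 CPM, log2 fold change 0.45, adjusted p = 0.00116) and the exonuclease Eri1 (22.96 ± 2.20 to 35.3 ± 6.16 CPM, 0.62, adjusted p = 0.00131). Of 20 Argonaute partners 5 rose and 1 fell. Ajuba, a LIM protein that also acts in Hippo signalling, rose from 81.6 ± 4.16 to 196 ± 8.28 CPM (1.27, adjusted p = 1.68e-07), and Ankrd52 from 35.5 ± 7.60 to 58.4 ± 7.56 CPM (0.72, adjusted p = 0.000355). Ankrd52 is a regulatory subunit of the PP6 phosphatase that acts on Argonaute, and Ppp6c, the catalytic subunit, was the one that fell, from 71.0 ± 4.33 to 55.7 ± 2.33 CPM (-0.35, adjusted p = 0.00237), a call that library totals did not give (-0.19, adjusted p = 0.0566).

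Of 18 deadenylation genes 6 rose and 2 fell. Pabpc4, a poly(A)-binding protein, rose from 85.0 ± 4.09 to 109 ± 6.14 CPM (log2 fold change 0.36, adjusted p = 0.000691), and Cnot3, a subunit of the CCR4-NOT deadenylase, from 31.7 ± 4.59 to 45.8 ± 1.62 CPM (0.53, adjusted p = 0.000731). The 2 that fell were the related antiproliferative adaptors Tob1 (108 ± 5.79 to 75.8 ± 6.16 CPM, -0.50, adjusted p = 0.00453) and Tob2 (98.5 ± 6.94 to 68.9 ± 7.05 CPM, -0.51, adjusted p = 0.00374). Of 17 decapping genes 6 rose, including the decapping enzyme Dcp2 (38.2 ± 3.13 to 56.5 ± 6.90 CPM, 0.56, adjusted p = 0.000308) and Lsm2 of the Lsm ring (13.7 ± 0.657 to 22.6 ± 1.87 CPM, 0.72, adjusted p = 5.33e-05). All of these are cystic against noncystic Pkd2+/+ kidneys by edgeR, with SD over n = 3.

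With the motif deleted, the same comparison again called Hnrnpa1, Tut7, Eri1, Ajuba, Pabpc4, Dcp2 and Lsm2 as higher, with log2 fold changes from 0.23 for Pabpc4 to 1.02 for Ajuba. The other genes of these lists named above as called did not pass there. Adar had 0.16 (edgeR adjusted p = 0.370), Ankrd52 0.32 (0.0861), Cnot3 0.29 (0.0540), Tob1 -0.29 (0.108), Tob2 -0.28 (0.114) and Ppp6c -0.12 (0.318). The interaction called none of them, so a difference between the Pkd2 genotypes was not shown.

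The 2 host genes differed. Mcm7, a replication helicase subunit whose introns hold miR-93 and miR-106b, measured 46.1, 40.3 and 41.6 CPM in noncystic and 74.3, 91.1 and 86.5 CPM in cystic Pkd2+/+ kidneys, that is, a log2 fold change of 0.98 (SE 0.11, edgeR adjusted p = 4.24e-06). Mir17hg, the long transcript from which miR-17 and miR-20a are cut, measured 10.5, 8.72 and 6.82 CPM against 9.56, 6.22 and 8.94 CPM. Mcm7 was higher in every cystic kidney, whereas the Mir17hg groups overlapped (-0.07, SE 0.20, adjusted p = 0.827, turning to 0.08 with library totals). In the cystic comparison with the motif deleted, Mcm7 was again called as higher (0.88, SE 0.11, edgeR adjusted p = 2.54e-05). Mir17hg was not called there (0.18, SE 0.20, adjusted p = 0.602). Mature microRNAs were not measured by these libraries.

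**Figure D5:**
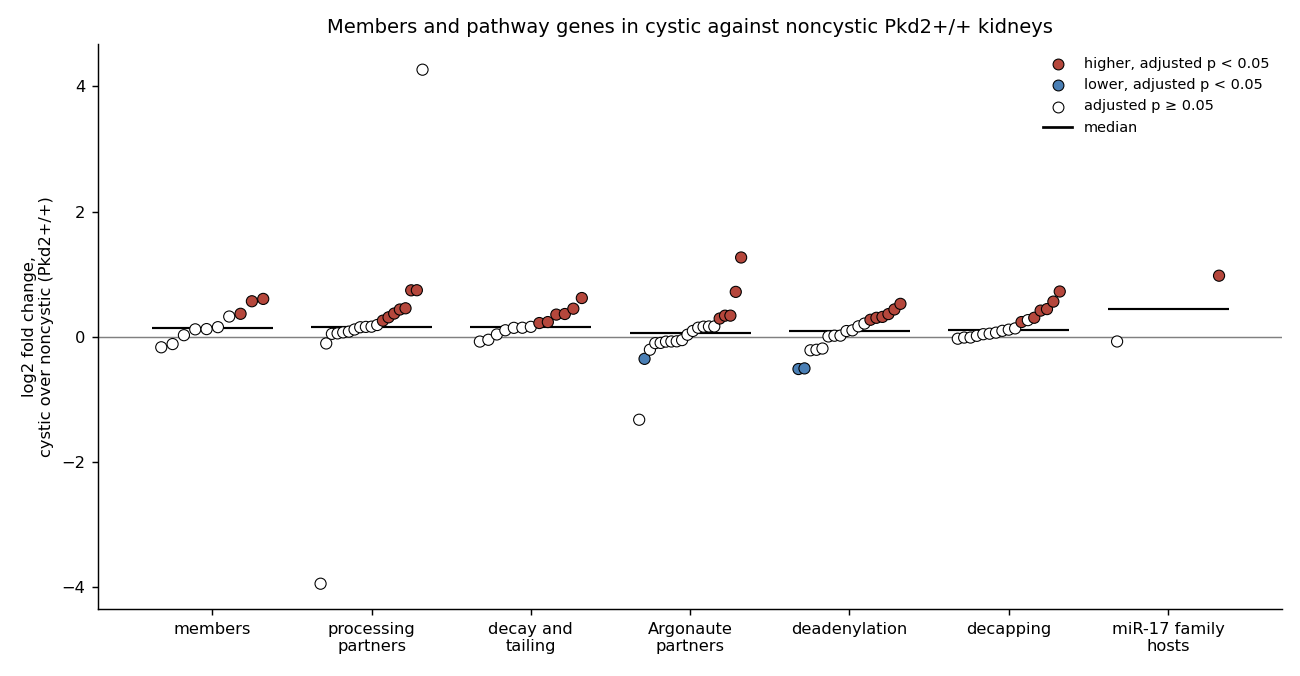
Log2 fold change between cystic and noncystic Pkd2+/+ kidneys for the 10 members and the 89 genes of the 6 lists, 1 point per gene, red where higher and blue where lower at an adjusted p under 0.05 and white otherwise, with the median of each list as a line. The outlying white points are Lin28a, Lin28b and Trim71, which had at most 6 reads in a library.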

How the data were processed

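Total RNA from whole kidneys of 12 mice was sequenced. The submitters' processing notes name Trim Galore 0.6.3 and STAR 2.5.3a with GRCm38, and the study's methods name Ensembl release 94. The authors deposited raw whole-number read counts per gene, not normalized. The strand setting of the counting is not given in the sources used here, and STAR leaves out reads that overlap exons of more than 1 gene.

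Counts were analysed with edgeR 4.0.16 in R 4.3.3: genes with a mean log2CPM of at least -3 (prior count 2), TMM factors, 1 mean per group over all 12 mice, the quasi-likelihood test and Benjamini-Hochberg adjustment over 24642 genes at 0.05. Intervals are 95%. The fit was tested on simulated data. Of the gene identifiers, 54495 matched GENCODE M21, which gave exons, lengths and 3′-UTRs. MicroRNA sequences are from RefSeq. Sequences of proteins were not used here.

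Alternatives were library totals, DESeq2 1.42.0 size factors and Wald test, limma-trend (limma 3.58.1), other filters, compared groups only, Xist as covariate and leaving out each mouse. Dropping mice 27 and 30 together was added after seeing the data. The members, the lists and the rule for named genes (per list, up to 2 rising and 2 falling genes of lowest adjusted p without overlap between cystic and noncystic Pkd2+/+ kidneys, both host genes and Pkd2, and the 3 genes most like the member with the largest change, among genes with a mean log2CPM of at least 1) were chosen with earlier results of these data known. Lin28a, Lin28b, Trim71, Xpo5 and Tarbp2 were named outside that rule, after their values were seen. The study used both sexes, the labels do not give the sex of each mouse, and its balance within groups of 3 is not known here. The labels do not say whether mice shared litters. The tests treat mice as independent, so p-values could be too small if littermates fell in the same group. Pairs of mice within a group differed by 9.65 to 26.8 in chi-square per degree of freedom, so no library was a repeat of another in its group. Pairs across groups were not compared.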

Additional observations from a re-analysis of the deposited data

How the results depend on the processing

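No paired analysis was possible because no mouse number is shared between groups. Ago1 in every cystic comparison, and Drosha and Dgcr8 in the Pkd2+/+ comparison and in the average, were called under every alternative run, and no member was called for the deletion or the interaction under any. With library totals, by edgeR or limma-trend, 7 members were called in the Pkd2+/+ comparison, against 35.4% and 35.8% of all genes. In the average 6 were called, against 42.8% and 43.3%. The cystic Pkd2Δ17/Δ17 comparison kept 1 without mice 27 and 30, where fewer mice were compared, against 17% of all genes. The average had 3 to 5 when single mice were left out, against 35.1% to 37.7%. The Drosha call in Pkd2Δ17/Δ17 mice was lost with DESeq2 size factors (edgeR adjusted p = 0.0593), no filter (0.0749), the Xist covariate (0.0566), the compared groups only (0.0507) and without mouse 22, 23, 29 or 30 (up to 0.170), and the Dgcr8 call without mouse 24 (0.0617). Conversely, Ago4 passed in Pkd2+/+ mice without mouse 26 (0.45, adjusted p = 0.0439) and Tnrc6a in Pkd2Δ17/Δ17 mice without mouse 22 (-0.36, adjusted p = 0.0429). The cause was not tested.

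The log2 ratio of Drosha to Dgcr8 missed the threshold with 1 read added (-0.197) and without mice 27 and 30 (-0.164), with -0.246 to -0.144 over single mice left out. The Tnrc6a share missed it without mice 27 and 30 (-3.77), with -4.53 to -2.79 over single mice left out. The Ago2 share passed in every alternative run.

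All sign changes were in uncalled differences. In the Pkd2+/+ comparison these were Tnrc6a with library totals (0.0439, limma-trend 0.0291) and Tnrc6b with DESeq2 size factors (-0.000233), by DESeq2 (-0.000164) and over single mice left out (-0.0436 to 0.138). In Pkd2Δ17/Δ17 mice they were Ago4 with library totals (0.0153, limma-trend 0.0241) and over single mice (-0.237 to 0.000928), Tnrc6b with DESeq2 size factors (-0.0208), by DESeq2 (-0.0208), with filterByExpr (-0.00752) and over single mice (-0.0793 to 0.0764), and over single mice Ago2 (-0.0266 to 0.109) and Tnrc6c (-0.00263 to 0.0525). For the deletion in cystic kidneys they were Tnrc6c with library totals (0.00296), limma-trend (0.00671), filterByExpr (0.00191), the Xist covariate (0.0205) and over single mice (-0.0390 to 0.0676), and over single mice Ago2 (-0.0537 to 0.0282), Ago3 (-0.183 to 0.115) and Tnrc6b (-0.00329 to 0.181). Of 28 further member results whose values are not given, all uncalled and at most 0.16 in size, 10 changed sign and 3 passed the threshold under some alternative.

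Over all genes, the deletion in cystic kidneys gave 549 calls, against 1128 by DESeq2, 1639 without a filter and 167 from the compared groups only, and 118 without mouse 29, 127 without 28, 130 without 27 and 861 without 25. In noncystic kidneys it gave 1, against 3, 124 and 2, and 0 to 2 over single mice left out. On average it gave 109, against 708 by DESeq2, 1264 without a filter and 19 (without mouse 29) to 612 (without mouse 25). The interaction gave 3, against 8 with library totals, 9 by limma-trend, 134 by DESeq2, 566 without a filter, 0 with filterByExpr, 13 with the Xist covariate, 20 without mice 27 and 30 and 0 to 61 over single mice left out. No detection limit was measured, and the precision is that of the printed intervals.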
